A study of Homo sapiens with 6 samples.

Results

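The genes examined were 8 genes that are known to be aberrantly expressed in, or controlled by the fusion protein of, AML with the t(8;21) translocation. They were POU4F1, PAX5, CD79A, UBASH3B, LAT2, JUP, TRH and OGG1. They were picked by name as genes known in this leukemia, and all 8 were found among the 29810 genes of the table by their Ensembl identifiers. mRNA-seq had been performed on Kasumi-1 cells, a cell line established from human AML with this translocation. The 3 control libraries came from cells given the DMSO vehicle, and the 3 treated libraries from cells given 0.25 μM I3, an inhibitor of histone deacetylases (HDACs). Incubation was 48 h for all 6 libraries. Each group holds 3 libraries of a single cell line, and nothing in the labels says whether they came from separate cultures, so p-values measure the spread between these libraries only.

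The t(8;21) translocation joins the DNA-binding part of RUNX1, a master regulator of blood formation, to RUNX1T1, a corepressor that brings HDACs to its targets. The fusion protein RUNX1-RUNX1T1 holds down genes that RUNX1 would activate and is also associated with genes that are out of place in a myeloid cell. Of the genes examined, LAT2 and OGG1 are known as repressed targets. POU4F1, PAX5, CD79A, UBASH3B, JUP and TRH are known for high expression in this leukemia. Since the fusion protein acts partly through HDACs, the comparison of I3 with control cells asks whether the levels of these genes move when HDACs are inhibited.

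The levels are given as FPKM, fragments per kilobase of exon, scaled to the fragments of the library, so that different genes can be compared per length. The reads behind them were rebuilt from FPKM, exon length and library depth, which was 17500321 to 18193372 reads. Library deviations from the mean of each gene followed GC content over 12939 genes, with a rank correlation of -0.446 to -0.232 in control 1, I3 1 and I3 3 and of 0.262 to 0.446 in control 2, control 3 and I3 2. Fold changes are therefore also given within these GC clusters of libraries, with the negative cluster first. The negative cluster holds 1 control and 2 I3 libraries, and the positive cluster 2 control and 1 I3 libraries. Each such value thus rests on a single library on one side, control 1 or I3 2, and is descriptive. Kasumi-1 cells showed the markers of a myeloid progenitor, with KIT at 197.8 FPKM or more, CD34 at 28.9 FPKM or more and MPO at 7740 FPKM or more in each library. Markers of other cells were low, as the summed level was 0.234 to 1.15 FPKM for 4 T cell markers, 0.164 to 0.432 FPKM for 2 mature B cell markers and at most 0.136 FPKM for 3 erythroid markers, whereas of 3 stromal and epithelial markers KRT18 was at 0 and EPCAM reached 28.2 to 31.6 FPKM. Their part in the results was not tested. The fusion partners were both transcribed, RUNX1 at 32.4 ± 1.68 FPKM in control and 34.2 ± 1.01 FPKM in I3 cells, and RUNX1T1 at 15.1 ± 1.24 and 16.1 ± 1.11 FPKM (SD, n = 3). Reads of the fusion transcript cannot be told apart from those of the normal genes in this table.

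Short promoter sequences are shown for the genes that hold the core letters of the RUNX binding motif, since RUNX1-RUNX1T1 binds DNA through the RUNX1 part. RefSeq windows on GRCh38.p14, reaching from 250 bases before to 50 bases after the RefSeq start, were at hand for 7 of the 8 genes, with 2 windows for JUP. Distances are counted from the RefSeq start, which can differ from the gene coordinates given below. The CD79A window spans 41877029 to 41877328, while the gene begins at 41877120. The PAX5 window, 37034219 to 37034518, lies wholly upstream of the gene as given below, which reaches to 37034185 on the minus strand. LAT2 had no entry. TGTGGT and TGCGGT were searched on both strands. TGTGGT was found once each in CD79A and OGG1, and neither motif was found in the windows of POU4F1, PAX5, UBASH3B, JUP and TRH. Among all 35116 windows, 13.1% hold TGTGGT, 7.29% hold TGCGGT and 19.6% hold either. A match is a description of the letters and not a bound site. The matches, in capitals with 12 bases on either side and read along the strand of the gene, are:
CD79A, chr19:41877082-41877111, plus strand, motif on the reverse strand 185 bases upstream of the start: ggaattgtggccACCACAggtgcagggagc
OGG1, chr3:9749948-9749977, plus strand, motif 8 bases downstream of the start: ttccggtggtgcTGTGGTctgcccctggag
The windows also differed in CpG content. POU4F1 had 47 CpG dinucleotides, more than 97.6% of all windows, and TRH had 37. CD79A had 4, where the median window has 14.

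The 8 genes covered a wide range of levels, from JUP at the top to OGG1 at the bottom. Over the 6 libraries the mean was 79.3 FPKM for JUP, 36.4 FPKM for TRH, 21.98 FPKM for UBASH3B, 4.97 FPKM for POU4F1, 1.27 FPKM for PAX5, 1.24 FPKM for CD79A, 0.334 FPKM for LAT2 and 0.131 FPKM for OGG1. JUP lay above 98.5% of the 26609 genes that had any read, and OGG1 above 34.0%. Each neighbour in this order exceeded the next in 6 of 6 libraries, except PAX5 and CD79A. The order was set on the same 6 libraries, so no test of it is given. The smallest ratio between neighbours in a library was 1.42 for TRH over UBASH3B and 1.58 for LAT2 over OGG1. PAX5 exceeded CD79A in 3 of 6 libraries, with a ratio of 0.729 to 1.499, so their levels did not differ beyond the spread. In FPKM, the genes known for high expression in this leukemia stood above both genes known as repressed in each library. This order depends on exon length, which is 4545 bases for LAT2 and 1503 for CD79A. In reads, LAT2 was above CD79A in control 2 (26 and 24) and below it in control 1 (14 and 26). No cells without the fusion were measured, so the part of the fusion in this order was not tested.

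**Figure D1:**
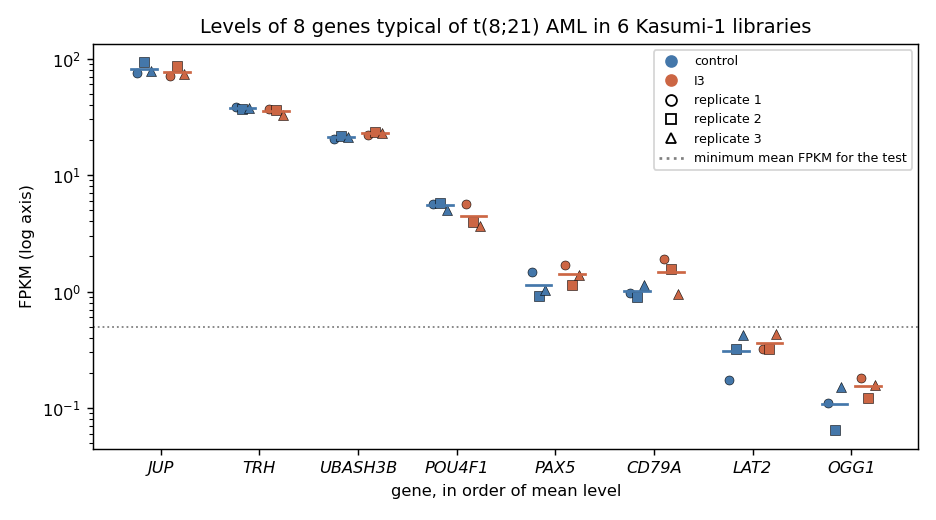
FPKM (log axis) of the 8 genes in each library, in order of their mean level. Blue points are control and orange points I3 libraries, the marker gives the replicate number, the short lines are group means, and the dotted line is the minimum mean of 0.5 FPKM for the test. JUP, TRH and UBASH3B lie above 20 FPKM in each library, while LAT2 and OGG1 lie below the line.

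I3 and control libraries were compared by limma, fitted to log2(FPKM + 0.5) for the 12960 genes whose mean reached 0.5 FPKM. The pseudocount of 0.5 makes the log2 fold changes of low genes too small. POU4F1, PAX5, CD79A, UBASH3B, JUP and TRH passed this minimum, which is 6 of the 8 genes. LAT2 and OGG1 were under it and were read from the same fit without a minimum, over 26609 genes. None of the 8 genes passed an adjusted p of 0.05 with a log2 fold change of 0.58 in limma, where 0% of all tested genes were called as higher and 0% as lower, and voom on the rebuilt reads called 0 genes as well. At an unadjusted p under 0.05, limma called 0 of the 6 tested genes, while it called 4.93% of all tested genes (1.40% with the fold threshold as well). With voom, POU4F1 was the single gene of the 8 at an unadjusted p under 0.05 (unadjusted p = 0.0384, adjusted p = 0.998). The control and I3 libraries did not overlap for UBASH3B, which was higher, and TRH, which was lower, whereas 9.70% of all tested genes did not overlap (5.06% higher and 4.64% lower). In bulk RNA, a change in the share of cells that express a gene and a change in RNA per cell cannot be told apart.

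**Figure D2:**
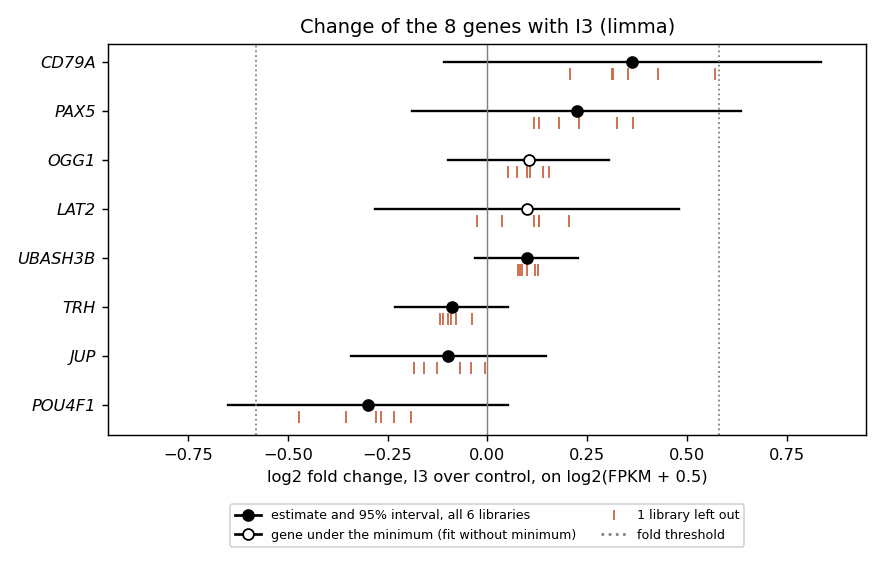
log2 fold change of I3 over control on log2(FPKM + 0.5) for the 8 genes. Points and lines are limma estimates with 95% intervals, open points are genes under the minimum, orange ticks are estimates with 1 library left out, and dotted lines mark the fold threshold of 0.58. Each interval includes 0, and those of UBASH3B, TRH and JUP stay within the threshold in both directions. The intervals of LAT2 and OGG1 are narrowed by the pseudocount on this scale and reach past the threshold with a pseudocount of 0.1 or with voom.

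POU4F1, a POU-homeodomain transcription factor of sensory neurons, had the lowest fold change of the 8 genes. The gene (ENSG00000152192) lies on chromosome 13 of GRCh38 from 78598362 to 78603560 (minus strand). It had 5.67, 5.77 and 5.05 FPKM in control 1, 2 and 3, and 5.69, 3.94 and 3.69 FPKM in I3 1, 2 and 3. I3 2 and I3 3 lay below each control library and I3 1 lay at the level of the controls, so the groups overlapped. The mean was 5.50 ± 0.388 FPKM in control and 4.44 ± 1.09 FPKM in I3 cells (SD, n = 3; two-sided exact permutation p = 0.3). limma gave a log2 fold change of -0.30 (adjusted p = 0.998, standard error 0.150) and a 95% interval of -0.65 to 0.052. The value varied with single libraries, as it was -0.47 without I3 1 (unadjusted p = 0.00226, adjusted p = 0.376) and -0.19 without I3 3. Within the GC clusters it was -0.28 and -0.41. The 1324 control and 1085 I3 reads gave a ratio of 0.807 with an exact binomial 95% interval of 0.744 to 0.875, which like all such intervals here covers counting error only. Exons of AL445209.1 on the opposite strand cover 27.7% of the POU4F1 exons, and without a stated strand setting of the counting the reads of such partners cannot be told apart. AL445209.1 itself was low, with 0.152 ± 0.0535 FPKM in control and 0.208 ± 0.0501 FPKM in I3 cells (SD, n = 3). Of the POU4F1 paralogs, POU4F3 had at most 0.144 FPKM in a library, and POU4F2 was not analysed here.

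PAX5 and CD79A are B-lineage genes. PAX5 is the transcription factor that commits cells to the B lineage, and CD79A, a signaling chain of the B cell receptor, is one of its targets. PAX5 (ENSG00000196092, chromosome 9, 36833275 to 37034185, minus strand) had 1.47, 0.921 and 1.02 FPKM in control 1, 2 and 3, and 1.70, 1.14 and 1.38 FPKM in I3 1, 2 and 3. I3 1 was the highest library and control 2 the lowest, and the groups overlapped. Its log2 fold change in limma was 0.22 (standard error 0.176, 95% interval -0.19 to 0.64, adjusted p = 0.998), and the exact permutation p was 0.3. The 3 highest PAX5 libraries were control 1, I3 1 and I3 3, which make up the negative GC cluster. Genes of higher GC content tended to lie lower in the libraries of that cluster. Within the clusters the difference was 0.045 and 0.16, and with the cluster as a term of the fit it was 0.10. PAX5 has a GC content of 58.3% in its transcripts. With the GC correction its log2 fold change was 0.25 (standard error 0.196), beside 0.22 (standard error 0.176) without it. The part of GC content in the PAX5 values was not tested further.

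CD79A (ENSG00000105369, chromosome 19, 41877120 to 41881372, plus strand) had the highest fold change of the 8 genes with all libraries on log2(FPKM + 0.5), on few reads, while OGG1 was higher with voom (0.55 against 0.49) and PAX5 without control 1 (0.36 against 0.35) or without I3 2 (0.33 against 0.31). It had 0.979, 0.897 and 1.14 FPKM in control 1, 2 and 3, and 1.90, 1.57 and 0.951 FPKM in I3 1, 2 and 3. These values stand for 26, 24 and 30 reads in control and for 51, 42 and 26 reads in I3 cells. I3 1 and I3 2 exceeded each control library, whereas I3 3 lay among the controls. limma put the log2 fold change at 0.36 (standard error 0.201, 95% interval -0.11 to 0.83, adjusted p = 0.998), and the exact permutation p was 0.3. The value for CD79A was 0.57 without I3 3 (unadjusted p = 0.00926, adjusted p = 1.00) and 0.21 without I3 1, and 0.34 and 0.45 within the GC clusters. CD79B, the other signaling chain of the receptor, had 5.59 ± 0.641 FPKM in control and 4.34 ± 0.492 FPKM in I3 cells (SD, n = 3), a log2 fold change of -0.33 (standard error 0.110, unadjusted p = 0.0185, adjusted p = 0.868 from limma). The fold changes of the paired chains thus had opposite signs, and the difference between them was not tested.

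Most of the B-lineage program around PAX5 was low or at 0. Of 23 other B-lineage genes, 16 were in the table and 7 passed the minimum. Of these 7, 2 were higher and 5 lower with I3, with CD79B at an unadjusted p under 0.05 as lower (2.85% of all tested genes were lower at that p and 2.08% higher), 0 at an adjusted p, and a median log2 fold change of -0.072 beside 0.011 over all tested genes. BTK, TCF3 and IKZF1, which act in myeloid cells as well, reached 16.7 FPKM or more in each library. IGLL1, the surrogate light chain of pre-B cells, had 5.08 ± 0.680 FPKM in control and 4.42 ± 0.464 FPKM in I3 cells (SD, n = 3; log2 fold change -0.18, standard error 0.113, adjusted p = 0.998 from limma). BACH2 and IGHM were at 0 in each library, and EBF1, MS4A1, RAG2, DNTT and others were not analysed here.

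UBASH3B and LAT2 act on tyrosine kinase signaling. UBASH3B (STS-1) is a phosphatase that binds CBL and dampens receptor and SYK signaling. The gene (ENSG00000154127) lies on chromosome 11 from 122655675 to 122814473 (plus strand). It had 20.6, 21.8 and 21.2 FPKM in control 1, 2 and 3, and 21.9, 23.3 and 23.1 FPKM in I3 1, 2 and 3. Each I3 library lay above each control library, although I3 1 exceeded control 2 by little. The mean was 21.2 ± 0.630 FPKM in control and 22.7 ± 0.782 FPKM in I3 cells (SD, n = 3), with an exact permutation p of 0.1, the smallest that 3 against 3 libraries allow. In limma the log2 fold change was 0.098 (adjusted p = 0.998, standard error 0.0551), and its 95% interval was -0.031 to 0.23, that is 0.979-fold to 1.17-fold. Within the GC clusters it was 0.12 and 0.11, and leaving out single libraries gave 0.077 to 0.13. With the cluster as a term the unadjusted p was 0.0373 and the adjusted p was 0.732. The gene rested on 10125 control and 11031 I3 reads.

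LAT2 (NTAL), a membrane adaptor of leukocyte receptors that is a known repressed target of the fusion, was low in each library. The gene (ENSG00000086730) lies on chromosome 7 from 74199652 to 74229834 (plus strand). It had 0.174, 0.321 and 0.427 FPKM in control 1, 2 and 3, and 0.321, 0.321 and 0.435 FPKM in I3 1, 2 and 3. The reads were 14, 26 and 34 in control and 26, 26 and 36 in I3 cells. Control 1 was the lowest library and the other 5 overlapped. The read ratio of I3 over control (88 over 74) came to 1.17 (95% interval 0.849 to 1.62). This interval, which includes 1, gives the ratios compatible with these reads when counting error alone is considered. The spread between libraries comes on top, so the interval is not a detection limit. limma gave a log2 fold change of 0.099 (adjusted p = 0.936, standard error 0.156), and the exact permutation p was 0.5. voom on the rebuilt reads gave 0.30 (95% interval -0.45 to 1.04). The limma value turned to -0.025 without control 1, and within the GC clusters it was 0.38 and -0.087, of opposite sign.

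Kinases and adaptors around these proteins were measured too. Of 20 other genes of this kind, 19 were in the table and 14 were tested, of which 6 were higher and 8 lower, 0 at an unadjusted p under 0.05 and 0 at an adjusted p in limma, with a median log2 fold change of -0.016. CBL, the ubiquitin ligase that UBASH3B binds, had 16.7 ± 0.791 FPKM in control and 18.1 ± 0.409 FPKM in I3 cells (SD, n = 3; log2 fold change 0.11, standard error 0.0582, adjusted p = 0.998). LYN, a SRC family kinase, had 16.0 ± 0.640 and 14.6 ± 0.732 FPKM (SD, n = 3; log2 fold change -0.13, standard error 0.0629, adjusted p = 0.998). The T cell relatives of both proteins were nearly absent, since LAT was at 0 in each library and UBASH3A had 1 read in all, in I3 2.

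JUP encodes plakoglobin (gamma-catenin), an armadillo protein of desmosomes that can also act with TCF and LEF factors. The gene (ENSG00000173801) lies on chromosome 17 from 41754604 to 41786931 (minus strand). It had 75.0, 92.6 and 78.4 FPKM in control 1, 2 and 3, and 70.5, 86.1 and 73.2 FPKM in I3 1, 2 and 3. Replicate 2 was the highest library in both groups, I3 1 and I3 3 lay below each control library, and the groups overlapped through I3 2. Its log2 fold change in limma was -0.098 (standard error 0.104, 95% interval -0.34 to 0.15, adjusted p = 0.998), and the exact permutation p was 0.5. It was -0.063 in one GC cluster and 0.015 in the other, and -0.0072 without control 2. With a GC content of 63.2% in its transcripts JUP had the highest GC content of the 8 genes. Its highest libraries, control 2 and I3 2, were of the cluster with positive GC correlations. Control 3, of the same cluster, had 78.4 FPKM, near control 1 of the other cluster at 75.0 FPKM. With the GC correction the log2 fold change of JUP was -0.036. The part of GC content in the JUP values was not tested further. With 21473 control and 20356 I3 reads, counting error was small beside the spread between libraries.

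JUP stood out from its partners in level. CTNNB1 (beta-catenin), its closest relative, had 31.9 ± 0.694 FPKM in control and 31.9 ± 0.495 FPKM in I3 cells (SD, n = 3). The desmosomal partners DSP and DSG2 had at most 0.00915 FPKM in a library, and DSC2 had 2.82 ± 0.229 and 2.68 ± 0.139 FPKM (SD, n = 3). Of 20 catenin pathway and desmosome genes, 19 were in the table and 11 were tested, of which 7 were higher and 4 lower, with a median log2 fold change of 0.017. AXIN1, a scaffold of beta-catenin destruction, had 5.67 ± 0.546 FPKM in control and 4.60 ± 0.0559 FPKM in I3 cells (SD, n = 3; log2 fold change -0.27, standard error 0.0815, unadjusted p = 0.0123, adjusted p = 0.829 from limma). LRP6, a WNT co-receptor, had 11.9 ± 0.385 and 13.4 ± 0.787 FPKM (SD, n = 3; log2 fold change 0.16, standard error 0.0653, unadjusted p = 0.0460, adjusted p = 0.998 from limma). These were the 2 of 11 tested genes of the list at an unadjusted p under 0.05, beside 4.93% of all tested genes (2.08% higher and 2.85% lower), and 0 of the 11 passed an adjusted p. I3 and control libraries stood fully apart for 4 of the 11, beside 9.70% of all tested genes, with AXIN1 lower and LRP6, APC and TCF7L2 higher in I3 cells.

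TRH encodes the precursor of thyrotropin-releasing hormone, a peptide of the hypothalamus. The gene (ENSG00000170893) lies on chromosome 3 from 129974305 to 129977938 (plus strand). It had 38.1, 37.0 and 37.4 FPKM in control 1, 2 and 3, and 36.7, 36.3 and 32.7 FPKM in I3 1, 2 and 3. Each I3 library lay below each control library, with I3 1 and I3 2 close to the controls and I3 3 the lowest. The means were 37.5 ± 0.539 and 35.2 ± 2.20 FPKM (SD, n = 3; exact permutation p = 0.1). limma put the log2 fold change at -0.090 (standard error 0.0602, adjusted p = 0.998), where the 95% interval of -0.23 to 0.052 is 0.852-fold to 1.04-fold. It was -0.038 without I3 3, and -0.13 and -0.034 within the GC clusters. The genes that would make or receive the hormone were mostly low or at 0. Of 8 such genes, 7 were in the table and 2 were tested. QPCT was at 0 in each library, the receptor gene TRHR and the convertase gene PCSK1 had at most 0.0334 FPKM, and the amidating enzyme gene PAM had 7.40 ± 0.127 FPKM in control and 7.23 ± 0.184 FPKM in I3 cells (SD, n = 3). PREP, a peptidase gene, had 22.2 ± 1.96 and 19.7 ± 1.21 FPKM (SD, n = 3; log2 fold change -0.17, standard error 0.0818, adjusted p = 0.998 from limma). The median of these 2 tested genes was -0.099, and 0 of them had an unadjusted p under 0.05 in limma.

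OGG1, the DNA glycosylase that removes oxidized guanine and a known repressed target of the fusion, was the lowest of the 8 genes. The gene (ENSG00000114026) lies on chromosome 3 from 9749944 to 9788219 (plus strand). It had 0.110, 0.0643 and 0.150 FPKM in control 1, 2 and 3, and 0.180, 0.122 and 0.157 FPKM in I3 1, 2 and 3, from 17, 10 and 23 reads and 28, 19 and 25 reads. I3 1 and I3 3 exceeded each control library and I3 2 did not. I3 over control reads (72 over 50) came to 1.42 (95% interval 0.974 to 2.08). In limma the log2 fold change was 0.10 (adjusted p = 0.898, standard error 0.0825; exact permutation p = 0.2), and within the GC clusters it was 0.13 and 0.038. With a pseudocount of 0.1 it was 0.30 and with a pseudocount of 1 it was 0.058, and voom on the rebuilt reads gave 0.55 (95% interval -0.25 to 1.36, adjusted p = 0.994). Exons of CAMK1 and TADA3 on the opposite strand cover 29.04% of the OGG1 exons. TADA3 had 12.7 ± 1.04 FPKM in control and 12.1 ± 0.569 FPKM in I3 cells (SD, n = 3), far above OGG1, so the level of OGG1 is uncertain if the counting set aside reads shared by overlapping genes.

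The other enzymes of base excision repair were all measured. All 18 listed genes passed the minimum, 6 were higher and 12 lower with I3, 0 had an unadjusted p under 0.05 and 0 passed an adjusted p in limma, and the median log2 fold change was -0.027. The range was -0.14 to 0.086. MUTYH, the glycosylase that removes adenine opposite the lesion OGG1 acts on, had 4.12 ± 0.621 FPKM in control and 4.01 ± 0.1696 FPKM in I3 cells (SD, n = 3). NEIL2 had 3.29 ± 0.2002 and 2.93 ± 0.262 FPKM (SD, n = 3; log2 fold change -0.14, standard error 0.0908, adjusted p = 0.998 from limma), and XRCC1 had 6.30 ± 0.365 and 5.81 ± 0.307 FPKM (SD, n = 3; log2 fold change -0.11, standard error 0.0742, adjusted p = 0.998 from limma).

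Other genes known to answer to the fusion were measured as well. Of 15 other genes known as raised in t(8;21) AML or by the fusion, 14 were in the table and 9 were tested, 3 higher and 6 lower, with a median log2 fold change of -0.023 and 0 at an unadjusted p under 0.05 or at an adjusted p in limma. ID1, an inhibitor of differentiation factors, had the smallest p of them, with 19.2 ± 1.87 FPKM in control and 16.0 ± 2.13 FPKM in I3 cells (SD, n = 3; log2 fold change -0.26, standard error 0.112, adjusted p = 0.998 from limma). WT1 had 6.74 ± 0.728 and 5.83 ± 0.640 FPKM (SD, n = 3; log2 fold change -0.19, standard error 0.105, adjusted p = 0.998 from limma). Of 7 other genes known as held down, 6 were in the table and 5 were tested, 2 higher and 3 lower, with a median of -0.018 and again 0 at either p in limma. NF1, a brake on RAS, had 4.55 ± 0.127 and 5.05 ± 0.261 FPKM (SD, n = 3; log2 fold change 0.14, standard error 0.0704, adjusted p = 0.998 from limma), with groups that did not overlap. CEBPA, the granulocytic factor, had 3.83, 4.46 and 4.15 FPKM in control 1, 2 and 3 and 3.67, 4.61 and 1.48 FPKM in I3 1, 2 and 3, so that I3 3 alone was low (log2 fold change -0.41, standard error 0.318, adjusted p = 0.998 from limma). I3 3 was also the lowest library for POU4F1, TRH, ID1 (13.8 FPKM) and WT1 (5.21 FPKM). Other genes went the opposite way, as I3 3 was the highest library for LAT2, NF1 (5.30 FPKM) and CCND2 (32.9 FPKM). SPI1, the myeloid factor PU.1, had 63.2 FPKM in I3 3 and 86.7 to 95.6 FPKM in the other 5 libraries. The part of I3 3 in the ID1 and WT1 differences was not tested.

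**Figure D3:**
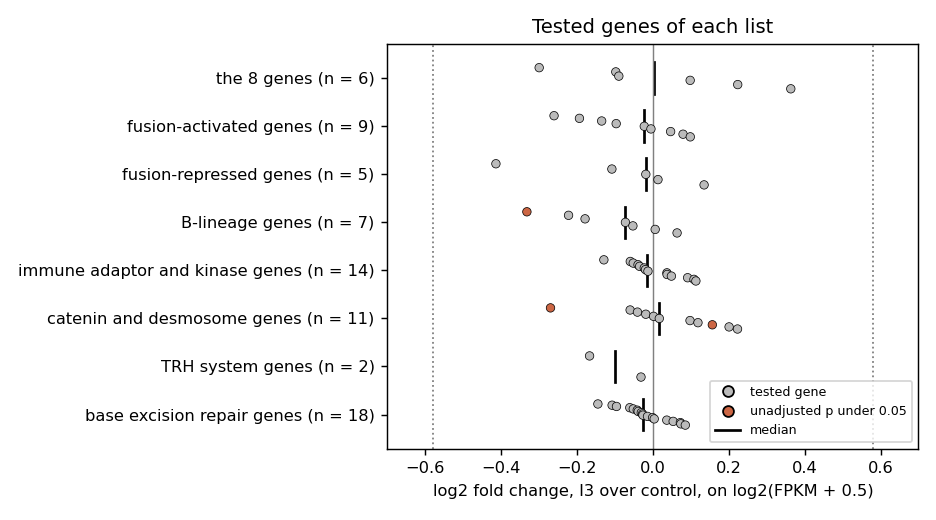
log2 fold change of I3 over control on log2(FPKM + 0.5) for the tested genes of each list, with the median as a vertical line and genes at an unadjusted p under 0.05 in orange. All points lie within the dotted fold thresholds of 0.58, and the orange points are CD79B, AXIN1 and LRP6.

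The highest library was I3 1 for CD79A, PAX5 and OGG1, control 2 for POU4F1 and JUP, control 1 for TRH, I3 2 for UBASH3B and I3 3 for LAT2. For each tested gene, the genes with the most similar pattern were taken from those with a mean of at least 5 FPKM, by the root-mean-square distance of log2(FPKM + 0.5) values centred on the gene mean over n = 6 libraries. POU4F1 was most like NKX3-2 (distance 0.0487) and SLBP (0.0728), where its own deviation was 0.237 and the median distance to the 6540 candidates was 0.255. The nearest genes were VPS26A (0.0533) and MRPL19 (0.0569) for PAX5, and JADE3 (0.0135) and SNRPD3 (0.0187) for UBASH3B. They were FSCN1 (0.0215) and LDB1 (0.0219) for JUP, and CDKN2C (0.0189) and CERCAM (0.0212) for TRH. CD79A had no close match, as its nearest were BTF3L4P2 (0.118), a pseudogene whose reads are uncertain, and MT-ATP8 (0.134). These distances are descriptive, and the libraries of a gene pair share depth and GC trend.

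**Figure D4:**
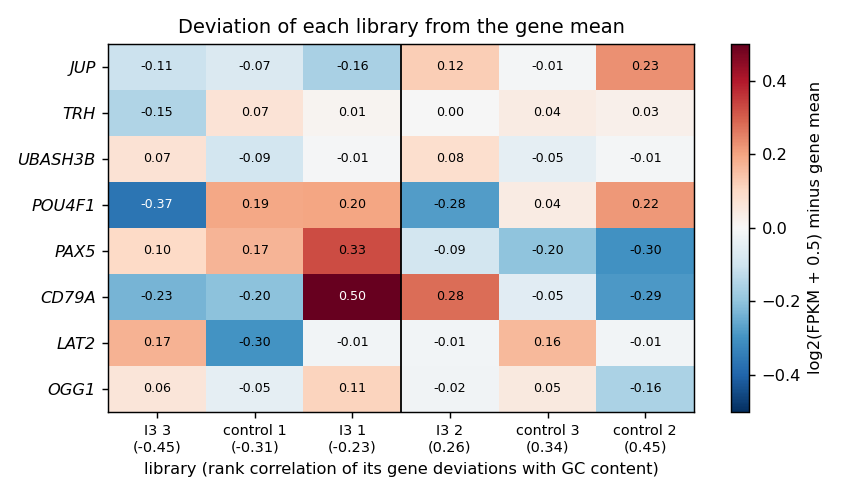
log2(FPKM + 0.5) of each gene in each library minus the mean of the gene over the 6 libraries, with libraries ordered by the rank correlation of their gene deviations with GC content (in brackets) and a line between the GC clusters. JUP is highest in control 2 and I3 2, PAX5 is highest in the 3 libraries left of the line, and POU4F1 is lowest in I3 3 and I3 2.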

How the data were processed

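mRNA-seq libraries were prepared by the authors with a stranded poly(A) kit. The submitters' processing notes name hg38, Trimmomatic, HISAT2, HTSeq and Cufflinks, without versions or roles, while the annotation and the strand setting were not stated. The deposited values are FPKM, normalized by the authors to gene length and library total, with 1 column per library and no counts. The table itself is named for a compound I13, whereas the labels give I3, and the study names a longer incubation in 1 place than the 48 h of the labels. The authors tested differential expression with DESeq. No value column was left out.

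Coordinates, exon lengths and GC content came from GENCODE release 29 (GRCh38; 29703 of 29810 identifiers matched), and symbols from a table of gene names. Reads were rebuilt as whole multiples of the FPKM worth of 1 read. All 6 values of a gene were whole within 0.1 read for 95.8% of genes. Depth, at 17500321 to 18193372 reads, limits mainly LAT2, OGG1 and CD79A.

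limma 3.58.1 (R 4.3.3; lmFit, eBayes with trend) compared 3 I3 with 3 control libraries across all genes, on log2(FPKM + 0.5) with a mean of at least 0.5 FPKM and Benjamini-Hochberg adjustment. Calls required a log2 fold change of 0.58 and an adjusted p under 0.05. The exact permutation tests for single genes were two-sided (scipy 1.17.1; pandas 2.3.3; Python 3.11.15), and plots were drawn with matplotlib 3.10.9. Read ratios have exact binomial 95% intervals. The procedure was tested on simulated data. The libraries of a group were no copies of each other, as the chi-square of their reads per degree of freedom was 4.36 or more.

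The 8 genes, the gene lists and the tests were chosen with earlier results of these data known, so no list is independent support. Named genes are the 8 genes, RUNX1 and RUNX1T1, the genes of each list with an unadjusted p under 0.05 (at least 2 per list, by smallest p), and the 2 genes nearest in pattern. CD34, EPCAM, BTK and other list genes were named after their values were seen. The alternatives were other pseudocounts, minimums, scalings and eBayes settings, the replicate number as a block, a GC correction, the GC cluster as a term, voom on rebuilt reads and each library left out. One gene of the lists is not reported here.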

Additional observations from a re-analysis of the deposited data

How the results depend on the processing

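No alternative called any of the 8 genes. The lowest adjusted p of a gene under any alternative was 0.376, for POU4F1 without I3 1. Of 143 fold changes of the 8 genes under alternatives, 142 kept their sign, and LAT2 turned to -0.025 without control 1. A minimum of 1 or 5 FPKM leaves no value for LAT2 and OGG1, and a minimum of 5 FPKM leaves none for POU4F1, PAX5 and CD79A. With single libraries left out, the log2 fold changes ranged from -0.47 to -0.19 for POU4F1, 0.12 to 0.36 for PAX5, 0.21 to 0.57 for CD79A, 0.077 to 0.13 for UBASH3B, -0.025 to 0.20 for LAT2, -0.18 to -0.0072 for JUP, -0.12 to -0.038 for TRH and 0.051 to 0.15 for OGG1. Other settings moved some values by over 1.5 times. JUP was -0.036 with the GC correction, -0.024 with the GC cluster as a term and -0.062 after quantile normalization, TRH was -0.049 with the GC correction and PAX5 was 0.10 with the GC cluster as a term. LAT2 and OGG1 were 0.046 and 0.063 after quantile normalization, 0.059 and 0.058 with a pseudocount of 1, 0.21 and 0.30 with a pseudocount of 0.1, 0.20 and 0.25 after rescaling to TPM and 0.30 and 0.55 with voom. The read ratios ranged from 0.694 to 0.876 for POU4F1, 1.11 to 1.45 for PAX5, 1.25 to 1.73 for CD79A, 1.06 to 1.09 for UBASH3B, 0.962 to 1.45 for LAT2, 0.876 to 0.998 for JUP, 0.920 to 0.974 for TRH and 1.18 to 1.76 for OGG1.

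Over all genes, the adjusted calls numbered 0 with all 6 libraries. With single libraries left out they ranged from 0 to 1 higher and from 0 to 2 lower (1 higher without control 1, 2 lower without I3 1 and 1 lower without I3 2). The 98 genes higher at the unadjusted p became 62 with a pseudocount of 1, 44 and 6 with a minimum of 1 and 5 FPKM, and 229 after rescaling to TPM. The 84 lower became 24 with a minimum of 5 FPKM and 162 after rescaling to TPM, in which more genes pass the minimum. They were 91 to 146 higher and 76 to 130 lower with single libraries left out, and the cause was not tested.

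The replicate numbers are shared between groups, but same-numbered libraries did not all deviate together (correlations of 0.063, 0.15 and -0.024), and control 1 correlated best with I3 3 (0.10). With the replicate block, 0 genes were called, and 109 were higher and 91 lower at the unadjusted p. POU4F1 then had an unadjusted p of 0.0498 (adjusted p = 0.757) in limma. JUP was close to it at 0.0508 (adjusted p = 0.759), and UBASH3B came next at 0.0786 (adjusted p = 0.781).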
